A study of Mus musculus with 8 samples.

Results

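Transcripts of 8 genes of magnesium handling were followed in the kidneys of homozygous *Scube3* mutant and wild type mice. The genes, *Trpm6*, *Trpm7*, *Cnnm2*, *Cnnm4*, *Slc41a1*, *Slc41a3*, *Pcbd1* and *Pvalb*, were taken by symbol from the annotation of the array, which held 11 probes for 7 of them among 25697 probes in all. *Slc41a1* was not analysed here because no probe was assigned to it. All 8 animals were males of the C3HeB/FeJ strain aged 29 weeks, 4 of them homozygous for a chemically induced missense allele of *Scube3*, kept as a single line on this strain, and 4 wild type. Total RNA of whole kidney was hybridized to Illumina Mouse Ref8 v2.0 BeadChips, with 1 array per mouse and no other treatment. *Scube3* encodes a secreted glycoprotein of the cell surface, and the arrays read the amount of its transcript, not the base change.

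The distal convoluted tubule is the last nephron segment that reclaims magnesium from the urine, and it does so through the cell. Magnesium enters through an apical channel formed by TRPM6, with TRPM7 as its close relative, and leaves on the blood side, where CNNM2 and the transporters of the SLC41 family have been placed. PCBD1 is a transcriptional cofactor that also acts as an enzyme of biopterin recycling, and in humans mutations of *TRPM6*, *CNNM2* and *PCBD1* are known causes of low blood magnesium. Parvalbumin, encoded by *Pvalb*, is a calcium-binding protein of the early part of this segment and is also abundant in fast skeletal muscle. Upstream, in the thick ascending limb, magnesium passes between the cells through a pore that contains claudin 16 and claudin 19.

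Scanned arrays had median intensities of 133 to 139 for wild type and 127 to 135 for mutant kidneys, and 12602 to 13127 probes per array were above background at a detection p under 0.05. The detection p compares a probe with the negative control probes of its array. Levels below are log2 intensities after background correction and quantile normalization with an offset of 16, and differences are homozygous mutant minus wild type. A probe was tested with limma if it was above background in 4 or more mice, which held for 12914 probes, and the Benjamini-Hochberg adjustment ran over all of these. Each array is a separate mouse, so the p-values rest on the spread between mice. At an adjusted p under 0.05, 16.7% of these probes differed between the genotypes, 7.83% higher and 8.9% lower in the mutants. Under median scaling instead of quantile normalization, the split was 241 higher and 1588 lower, instead of 1011 and 1149. The *Scube3* level was 5.38 ± 0.23 (SD, n = 4) without and 5.50 ± 0.30 (SD, n = 4) with the mutation, and neither of its probes passed the test (adjusted p = 0.625 and 0.249). The kidney genes *Kap* and *Cdh16* were bright on every array, with wild type means of 13.64 and 13.25.

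Promoter sequences are shown for the genes that passed the test, *Cnnm2* and *Pvalb*. They come from RefSeq (GRCm38.p6) and run from 250 bases before to 50 bases after a transcript start, and all 8 genes were matched, with 9 promoters because *Pvalb* has 2. Capitals mark a GC box (GGGCGG) or a CCAAT box (CCAAT), on either strand, and no marked letters overlap.
*Cnnm2* promoter, chr19:46761359-46761658, plus strand: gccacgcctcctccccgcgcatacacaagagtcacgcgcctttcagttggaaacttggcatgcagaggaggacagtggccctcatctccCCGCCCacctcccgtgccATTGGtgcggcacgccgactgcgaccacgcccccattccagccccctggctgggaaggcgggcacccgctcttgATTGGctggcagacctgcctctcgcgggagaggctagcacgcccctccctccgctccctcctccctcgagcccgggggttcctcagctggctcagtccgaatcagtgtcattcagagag
*Pvalb* promoter, chr15:78206351-78206650, minus strand: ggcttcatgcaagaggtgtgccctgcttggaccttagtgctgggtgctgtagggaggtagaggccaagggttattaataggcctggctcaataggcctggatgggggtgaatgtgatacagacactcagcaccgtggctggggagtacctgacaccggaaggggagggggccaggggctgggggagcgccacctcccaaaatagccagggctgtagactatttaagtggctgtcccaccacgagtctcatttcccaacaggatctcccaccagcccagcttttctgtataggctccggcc
A GC box stood in 4 of the 9 promoters against 35.7% of all 32851, and a CCAAT box in 2 against 37.4%. The *Cnnm2* promoter had both kinds, and the *Pvalb* promoter shown had none of these letters. A match of letters is a description and not a binding site.

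*Cnnm2* and *Pvalb* rose in the mutant kidneys, by 0.32 and 0.30 on the log2 scale, and no gene of the set fell. *Trpm6*, *Slc41a3* and *Pcbd1* did not pass the test, and *Trpm7* and *Cnnm4* were above background in no mouse. Of 5 genes tested by their brightest probe, 2 rose and 3 did not pass, where 16.2% of all 8999 genes tested in this way were called, 8.39% higher and 7.86% lower. These 5 genes had a median log2 fold change of 0.30, beside 0.03 over all genes tested. The median of the 5 ran from 0.22 to 0.32 when 1 mouse was left out. With no background correction *Cnnm2* and *Pvalb* had 0.28 and 0.29, but *Trpm6* had 0.10, the dim *Slc41a3* probe 0.09 and *Pcbd1* -0.08. The median of 0.30 thus depended on the background step. The genotypes did not overlap for 2 of the 7 probes tested, both higher in the mutants, and for 23.8% of all probes, with 12% above and 11.8% below.

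**Figure D1:**
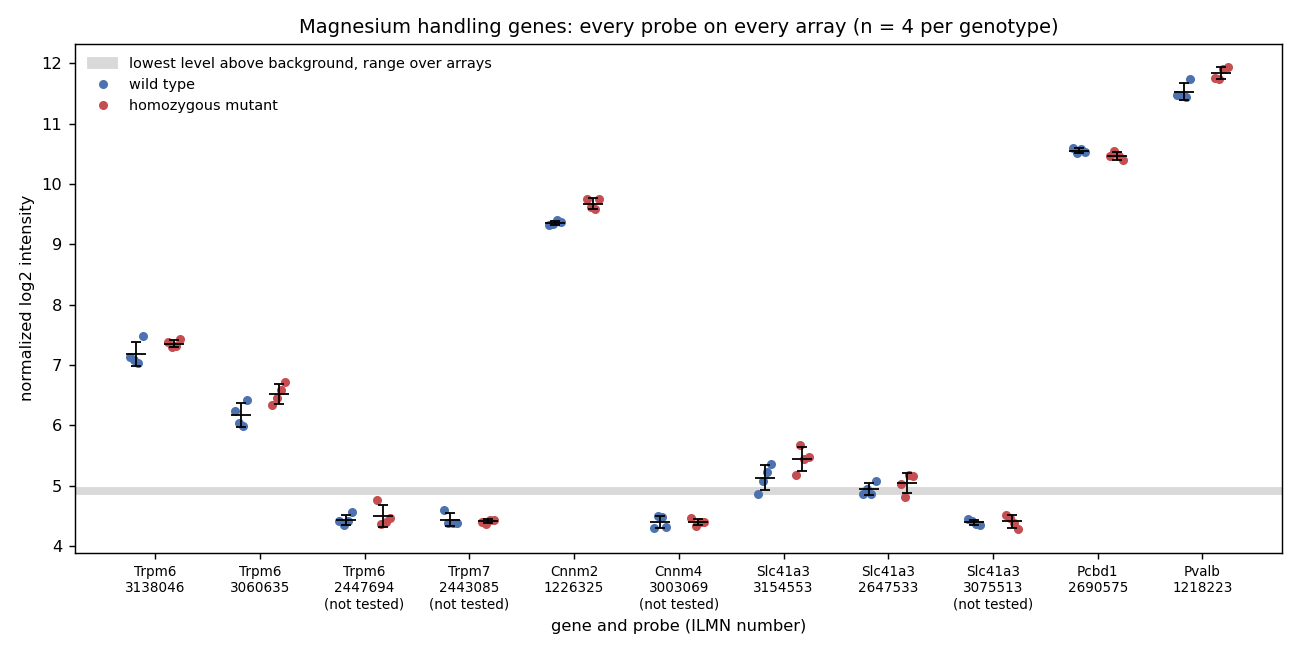
Normalized log2 intensity (vertical axis) of all 11 probes of the magnesium handling genes (horizontal axis) on each array, with wild type mice in blue and homozygous mutant mice in red; black bars give the mean and SD of 4 mice, and the grey band spans the lowest level above background on the 8 arrays. The mutant points lie above all wild type points for *Cnnm2* and *Pvalb*, and the 4 probes that were not tested lie under the band.

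*Trpm6*, the gene of the apical magnesium channel, was read by 2 of its 3 probes. At the brightest, ILMN_3138046, the wild type mice were at 7.14, 7.08, 7.04 and 7.47 and the mutant mice at 7.38, 7.29, 7.32 and 7.43. Wild type replicate 4 was the highest of all 8 mice, the other 3 wild type mice lay below all mutants, and the mutants were close together. The log2 fold change was 0.17 (SE 0.10, 95% confidence interval -0.04 to 0.39, adjusted p = 0.228). At the dimmer probe, ILMN_3060635, the wild type mice were at 6.24, 6.04, 5.99 and 6.42 and the mutant mice at 6.34, 6.45, 6.59 and 6.71. Only wild type replicate 4 reached into the mutant range, above mutant replicate 1, and the difference was 0.35 (SE 0.11, confidence interval 0.10 to 0.60, adjusted p = 0.06). The third probe, ILMN_2447694, was above background on no array, with levels from 4.35 to 4.76. Without wild type replicate 4, both readable probes passed the test, with 0.27 (adjusted p = 0.0324) and 0.43 (adjusted p = 0.0326), and the dimmer one also passed without mutant replicate 1 (0.41, adjusted p = 0.0498). Wild type replicate 4 was the highest wild type mouse at both probes, so leaving it out was bound to widen the differences. The same holds for mutant replicate 1, the lowest mutant at the dimmer probe. With median scaling the differences were 0.07 (adjusted p = 0.693) and 0.26 (adjusted p = 0.168), and with no background correction they were 0.10 (adjusted p = 0.208) and 0.15 (adjusted p = 0.0524). The single probe of *Trpm7*, whose channel is found in most cells, was above background on no array. It ranged from 4.37 to 4.60 in wild type and from 4.37 to 4.44 in mutant kidneys, so a difference was not detectable at this signal.

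*Cnnm2*, which encodes a basolateral membrane protein required for normal magnesium balance in humans and mice, rose in every mutant mouse. The wild type mice were at 9.32, 9.34, 9.40 and 9.36 and the mutant mice at 9.75, 9.63, 9.58 and 9.75. The wild type mice lay within a narrow range, with a mean of 9.36 ± 0.04 (SD, n = 4), and all mutants were above it, with a mean of 9.68 ± 0.09 (SD, n = 4). The log2 fold change was 0.32 (SE 0.06, confidence interval 0.18 to 0.46, adjusted p = 0.0111), a 1.25-fold rise. Before normalization the genotypes overlapped, with scanned intensities of 764 to 829 for wild type and 813 to 963 for mutant kidneys. In the authors' normalized intensities they were separate again, at 621, 625, 654 and 638 in the wild type mice and 848, 778, 753 and 853 in the mutants. *Cnnm2* passed the test without any 1 of the 8 mice, with 0.30 to 0.35 and adjusted p-values from 0.0177 to 0.0325.

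No other gene of the set placed on the exit side of magnesium passed the test. Outside the set, *Slc41a2* of the SLC41 family passed it with -0.37 (adjusted p = 0.0126) and is described with the other magnesium carriers. *Cnnm4*, whose product extrudes magnesium in the gut, was above background on no array, at 4.30 to 4.50 in wild type and 4.33 to 4.47 in mutant kidneys. *Slc41a3*, a mitochondrial magnesium transporter gene expressed in the distal convoluted tubule of mice, was read by 2 of its 3 probes. Its brightest probe, ILMN_3154553, was at 4.87, 5.07, 5.23 and 5.36 in wild type kidneys and at 5.17, 5.67, 5.43 and 5.48 in mutant kidneys. It was above background in 3 wild type and 4 mutant mice, and 1 mutant lay within the wild type range. The difference was 0.31 (SE 0.13, confidence interval 0.03 to 0.59, adjusted p = 0.117). Its size moved with the background step, from 0.09 with no background correction and 0.16 with an offset of 50 to 0.47 on the authors' intensities, and it passed the test in none of these. Its second probe, ILMN_2647533, was above background in 2 wild type and 3 mutant mice and had 0.10 (SE 0.09, confidence interval -0.10 to 0.31, adjusted p = 0.443). The third, ILMN_3075513, was above background on no array.

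*Pcbd1*, the cofactor gene, did not pass the test. The wild type mice were at 10.60, 10.52, 10.58 and 10.53 and the mutant mice at 10.47, 10.55, 10.46 and 10.39. Of the mutants, 3 were below all wild type mice and replicate 2 lay among them. The log2 fold change was -0.09 (SE 0.06, confidence interval -0.22 to 0.04, adjusted p = 0.304). Its paralog *Pcbd2* had 0.03 (SE 0.06, adjusted p = 0.711), and *Fxyd2*, which encodes the gamma subunit of the sodium pump, had 0.05 (SE 0.06, adjusted p = 0.6).

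*Pvalb* rose by a similar amount as *Cnnm2*, but with a wider spread in the wild type mice. These were at 11.48, 11.47, 11.45 and 11.74, and the mutant mice at 11.75, 11.75, 11.90 and 11.94. Wild type replicate 4 stood apart from the other 3 and came within 0.01 of the lowest mutant, so the genotypes were separate by a small margin. The means were 11.53 ± 0.14 (SD, n = 4) and 11.84 ± 0.10 (SD, n = 4), a log2 fold change of 0.30 (SE 0.08, confidence interval 0.12 to 0.49, adjusted p = 0.0357). The authors' intensities were 2840, 2783, 2764 and 3378 in the wild type mice and 3427, 3469, 3842 and 3924 in the mutants. The call was lost without wild type replicate 1, 2 or 3 or mutant replicate 2, 3 or 4, with adjusted p-values from 0.0517 to 0.087, and with median scaling (0.26, adjusted p = 0.085) or no filter on dim probes (adjusted p = 0.0525). Of 9 skeletal muscle genes with a probe, none was above background on 4 arrays, and *Acta1*, *Ckm*, *Myh1* and *Myh4*, which define that tissue, were above background on none.

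**Figure D2:**
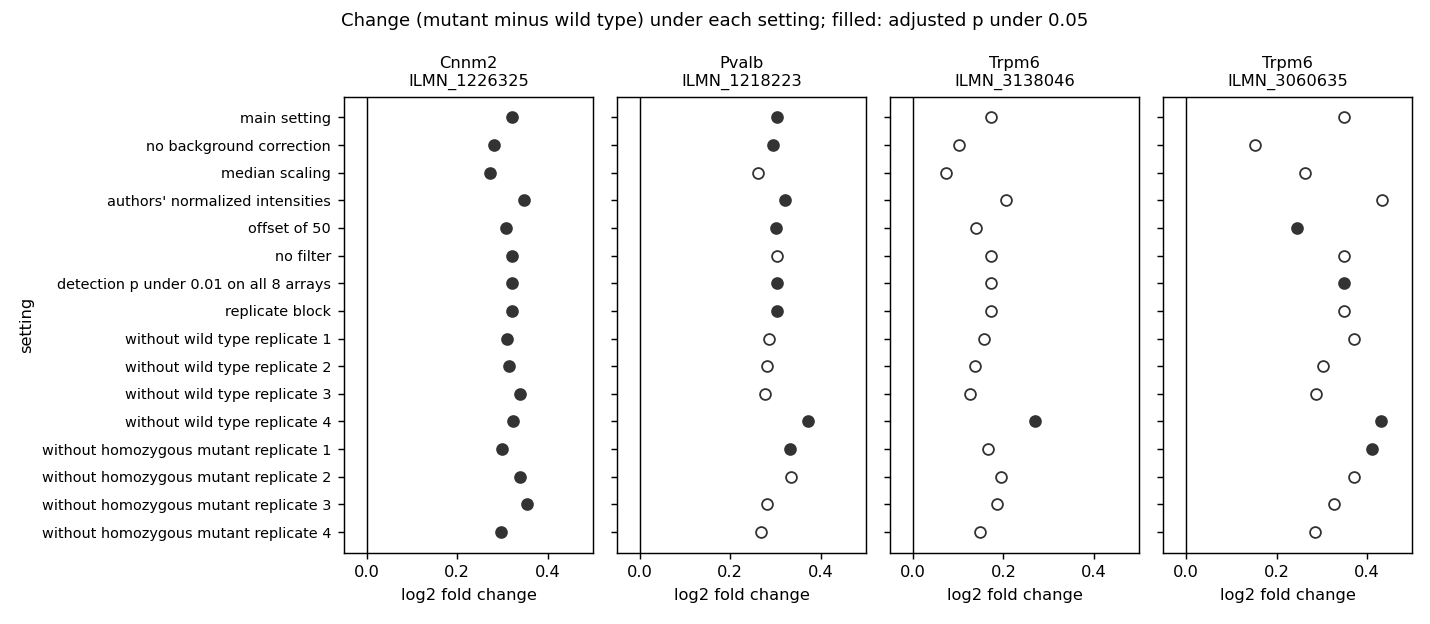
Log2 fold change, mutant minus wild type (horizontal axis), of *Cnnm2*, *Pvalb* and the readable *Trpm6* probes under the main and each alternative setting (vertical axis); filled points passed the test at an adjusted p under 0.05. All points lie above 0. *Cnnm2* passed under every setting drawn. Both *Trpm6* probes passed without wild type replicate 4, their highest wild type mouse, whose removal was bound to widen the differences.

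Wild type replicate 4 was the highest wild type mouse at 5 of the 7 magnesium probes tested (71.4%), namely those of *Trpm6*, *Slc41a3* and *Pvalb*, and at 25.8% of all probes tested. *Trpm6* and *Slc41a3* gave 2 of these probes each, and probes of the same gene are not separate readings. Replicate 4 was also the highest wild type mouse for *Slc12a3*, *Slc8a1* and *Wnk1* of the 5 distal convoluted tubule genes tested. Without it 3 of the 5 magnesium genes rose, *Cnnm2*, *Pvalb* and *Trpm6*, where 6.23% of all genes tested were higher and 6.16% lower. This comparison was chosen after the values were seen. Leaving out the highest wild type mouse for *Pvalb* and *Trpm6* was bound to widen their differences. What set this mouse apart was not tested.

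Other genes of the same segment differed in both directions. *Slc12a3*, which encodes the thiazide-sensitive sodium chloride cotransporter that defines the distal convoluted tubule, was at 11.86, 11.81, 11.83 and 12.00 in the wild type mice and 12.15, 12.08, 12.32 and 12.17 in the mutants. All mutants were above all wild type mice, with a rise of 0.30 (SE 0.07, adjusted p = 0.0235), close in size to *Cnnm2* and *Pvalb*. *Slc8a1*, the sodium-calcium exchanger gene, rose by 0.41 (SE 0.11, adjusted p = 0.0285), while *Stk39*, the gene of the kinase that activates the cotransporter, had -0.32 (SE 0.09, adjusted p = 0.0464). Of 10 genes listed for this segment, 5 were tested, of which 2 rose and 1 fell; *Calb1*, *S100g* and *Trpv5* had probes that were not above background on 4 arrays. The summed intensity of the 8 genes with a probe was 5975 to 7053 in wild type and 6896 to 7790 in mutant kidneys, so the genotypes overlapped. None of the 5 genes was called without wild type replicate 1, 2 or 3 or mutant replicate 3, and with median scaling only *Slc8a1* rose. Markers of the urothelium, the lining of the urinary tract, moved with the genotype as well: 4 of 5 tested rose, and the sum over the 6 listed genes, of which *Krt5* was above background on no array, was 165 to 210 in wild type and 263 to 376 in mutant kidneys. In whole kidney, more cells of a segment and more RNA per cell cannot be told apart, and the part of either, or of the urothelium, in the rise of *Cnnm2* and *Pvalb* was not tested.

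**Figure D3:**
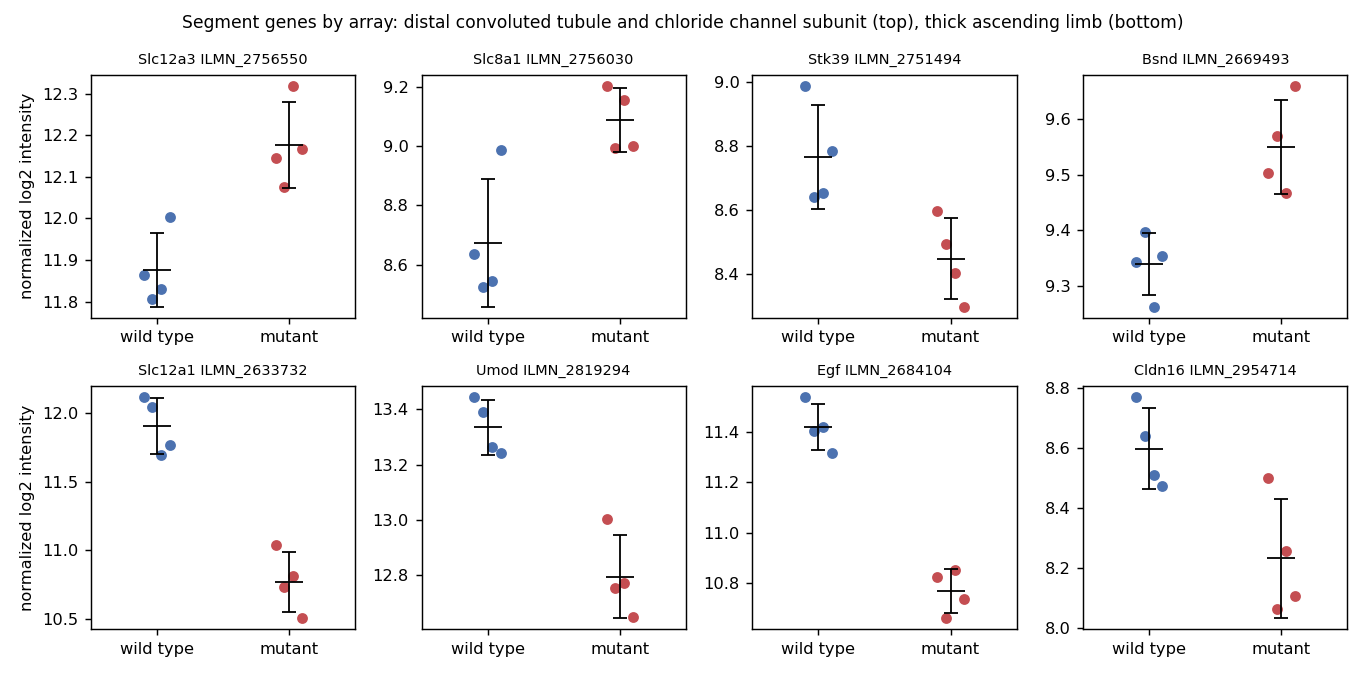
Normalized log2 intensity (vertical axis, scaled per gene and not from 0) of 8 segment genes in wild type (blue) and homozygous mutant mice (red), with the mean and SD of 4 mice in black. *Slc12a3*, *Slc8a1* and *Bsnd* were higher in all mutants, *Stk39*, *Slc12a1*, *Umod* and *Egf* were lower in all, and *Cldn16* overlapped.

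Beyond these genes, 42 further genes of magnesium handling were listed by role, of which 30 had a probe and 25 were tested. Of the 25, 3 rose, 6 fell and 16 did not pass, with a median log2 fold change of -0.07. Over all genes tested by their brightest probe, 8.39% were higher and 7.86% lower, with a median of 0.03. The same shares apply to the counts of each list of genes and of markers.

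Of the genes that regulate TRPM6, those of both secreted proteins fell. *Egf*, whose product stimulates the TRPM6 channel, was at 11.54, 11.40, 11.42 and 11.32 in the wild type mice and 10.82, 10.66, 10.85 and 10.74 in the mutants. No mutant reached the wild type range, and the difference was -0.65 (SE 0.07, adjusted p = 0.00227). *Umod*, the gene of uromodulin, which keeps TRPM6 at the cell surface, had -0.54 (SE 0.09, adjusted p = 0.00605). The receptor gene *Egfr* had 0.02 (SE 0.07, adjusted p = 0.886), and *Phb2* and *Msrb1*, which encode partners of TRPM6, had 0.06 (adjusted p = 0.487) and -0.07 (adjusted p = 0.632). Dimmer probes of *Egfr* had 0.06, 0.19 and -0.33 (adjusted p = 0.553, 0.0924 and 0.0663). The *Msrb1* probe ILMN_1257142 had 0.24 (SE 0.09, adjusted p = 0.0922), the other direction, and none of these dimmer probes passed. Thus 2 of 5 genes tested in this list fell and none rose. *Egf* and *Umod* also stand among the 7 marker genes of the thick ascending limb, with *Slc12a1* and *Cldn16*, and 5 of the 7 fell while none rose. Their summed intensity was 16242 to 19202 in wild type kidneys and 9996 to 12646 in mutant kidneys, without overlap. This sum and the count of 5 include *Egf* and *Umod* themselves, so neither is a separate reading of the segment. The part of this segment in the fall of *Egf* and *Umod* was not tested.

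On the paracellular route of the thick ascending limb, 2 of 6 genes tested fell and 4 did not pass. *Cldn16*, a gene of the magnesium pore, had -0.37 (SE 0.11, adjusted p = 0.043), with mutant replicate 1 at 8.50 inside the wild type range of 8.47 to 8.77. This call was lost in 7 of the 8 fits that left out 1 mouse, on the authors' intensities (adjusted p = 0.0589) and with no filter (adjusted p = 0.0714). *Cldn19*, its partner in the pore, had -0.06 (SE 0.10, adjusted p = 0.703), and the calcium-sensing receptor gene *Casr* had -0.16 (SE 0.14, adjusted p = 0.44). *Kcnj1*, also among the marker genes of this limb, went the other way, with 0.23 (SE 0.10, adjusted p = 0.154), and did not pass. *Cldn10*, a claudin gene of the same limb, had probes that disagreed in size, with -0.11 (SE 0.07, adjusted p = 0.283) at the brightest and -1.84 (SE 0.16, adjusted p = 0.00227) at ILMN_2723576. Its probes ILMN_1214954 and ILMN_2610656 had -0.18 (adjusted p = 0.178) and -0.19 (adjusted p = 0.168). Only ILMN_2723576 of the *Cldn10* probes tested passed. *Slc12a1*, whose cotransporter sets up the voltage that drives magnesium through this route, had -1.14 (SE 0.13, adjusted p = 0.00276).

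Among the relatives and partners of the CNNM proteins, *Ptp4a2* alone passed the test of 4 genes. It encodes a phosphatase of the PRL family, which bind CNNM proteins. Its brightest probe rose by 0.29 (SE 0.07, adjusted p = 0.0283), but its probes ILMN_2647282 and ILMN_1243291 fell by 0.43 (SE 0.06, adjusted p = 0.0044) and 0.45 (SE 0.06, adjusted p = 0.00298), so the gene had no single direction. The rise was also lost in 6 of the 8 fits that left out 1 mouse. *Cnnm1* had 0.29 (SE 0.13, adjusted p = 0.15), *Cnnm3* -0.21 (SE 0.11, adjusted p = 0.202) and *Ptp4a3* 0.01 (SE 0.09, adjusted p = 0.952).

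Other magnesium carriers moved in both directions. *Nipal2*, a member of the NIPA family, showed the largest rise of the 25 genes. It was at 7.32, 7.40, 7.57 and 7.31 in the wild type mice and 8.06, 7.89, 8.14 and 8.09 in the mutants, with a wide gap between the genotypes and a rise of 0.64 (SE 0.08, adjusted p = 0.00298). *Slc41a2*, the relative of *Slc41a3*, fell by 0.37 (SE 0.07, adjusted p = 0.0126), with 8.07 to 8.23 in wild type and 7.67 to 7.93 in mutant kidneys, without overlap. *Nipa2* fell by 0.20 (SE 0.06, adjusted p = 0.0401), a call that was lost without any 1 of the 8 mice, while *Nipa1* had -0.19 (SE 0.09, adjusted p = 0.166) and *Mmgt1* -0.12 (SE 0.06, adjusted p = 0.156). The probes of *Magt1* and *Mrs2* were not above background on 4 arrays.

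Of the genes that keep up the basolateral voltage and chloride exit of distal cells, *Bsnd*, the gene of the chloride channel subunit barttin, rose by 0.21 (SE 0.06, adjusted p = 0.0493). The call was lost without any 1 of the 8 mice and with median scaling (0.16, adjusted p = 0.27). The potassium channel gene *Kcnj16* had 0.15 (SE 0.06, adjusted p = 0.144) and the sodium pump gene *Atp1b1* -0.09 (SE 0.06, adjusted p = 0.363).

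**Figure D4:**
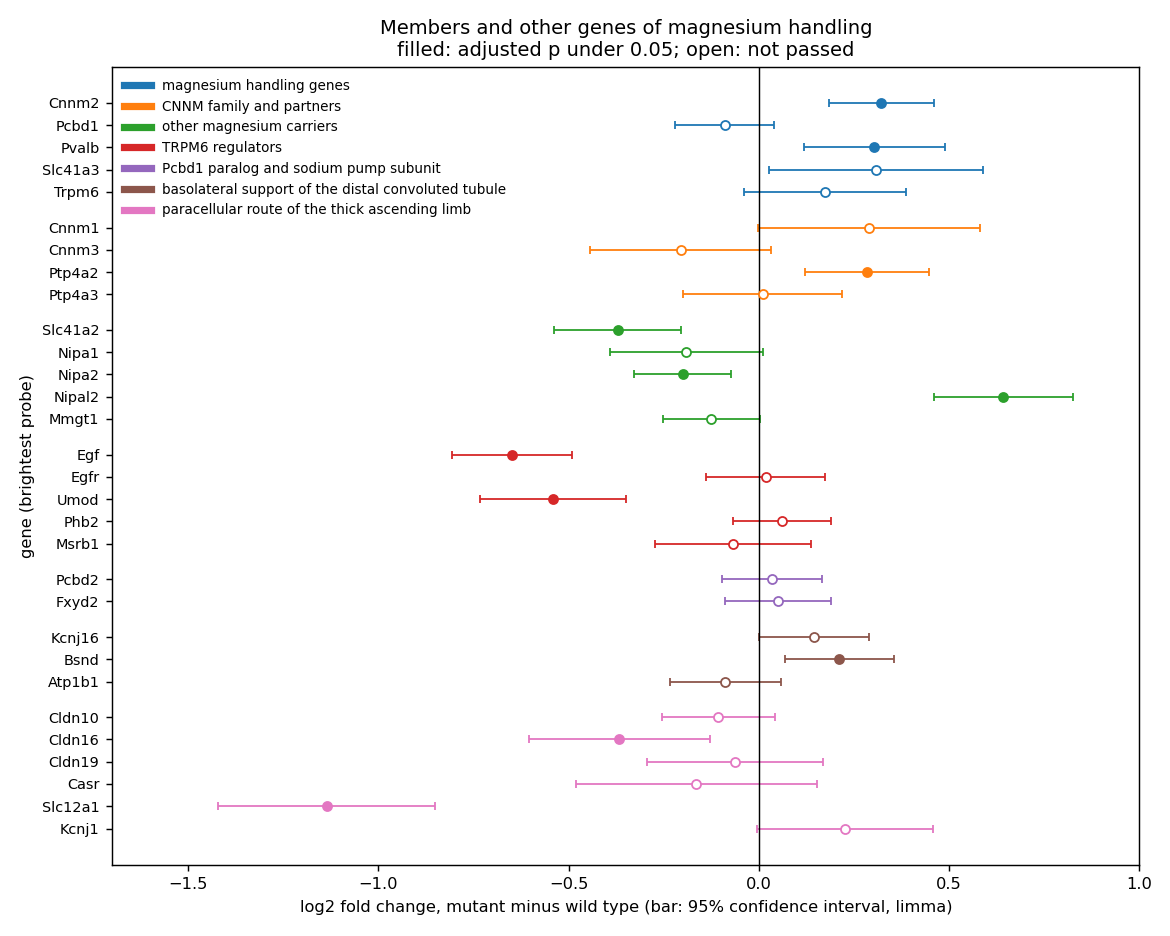
Log2 fold change, mutant minus wild type (horizontal axis), of the 5 magnesium handling genes tested and 25 further genes of the pathway (vertical axis), each by its brightest probe and coloured by its role; bars are 95% confidence intervals and filled points passed the test. *Cnnm2* and *Pvalb* lie above 0, with *Nipal2* at 0.64 and *Slc12a1* at -1.14 the most distant on either side.

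The genes most like the magnesium genes in profile over the 8 mice were sought among the tested probes assigned to another gene. The measure was the mean absolute difference per array after each profile was centred on its own mean. For *Cnnm2* the most similar genes were *Fxyd4*, *Rgl2* and *Abhd14a*, with mean differences of 0.02, 0.03 and 0.04 on the log2 scale. The median over the probes searched was 0.18. For *Pvalb* they were *Thap4*, *Rab8a* and *Hnrnpdl* (0.04 each, median 0.19), and for *Trpm6* they were *Xpo5*, *Lrrc75a* and *Cxcl16* (0.04 each, median 0.17). *Fxyd4*, which encodes a regulator of the sodium pump in the collecting duct, is the 1 of these genes that stands in a marker list. Centring left the difference between genotypes in each profile, so genes with a like difference came out as similar. *Fxyd4*, *Rgl2* and *Abhd14a* had log2 fold changes of 0.28, 0.32 and 0.30, beside 0.32 for *Cnnm2* itself.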

How the data were processed

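Kidney RNA of 8 mice was measured on 8 arrays. The authors deposited each probe's scanned intensity with no background subtraction and no normalization, and a detection p-value from GenomeStudio 2011.1, named in the submitters' processing notes. They also deposited a table of background-subtracted, cubic spline-normalized intensity, whose columns each kept the probe order of that mouse's scanned values. Probes were named by the platform annotation, with symbols updated by gene number for 23962 of 23978 named probes; 1719 had no name and none had several. Intensities were processed with neqc (offset 16) and fitted with lmFit and eBayes in limma 3.58.1 (R 4.3.3), with genotype as the only term, and 50.3% of probes passed the filter. A gene stands by its brightest probe over the 8 arrays. For 1 of 9000 genes only a dimmer probe passed the filter, so it was left out of counts of genes. Levels of different probes were compared only to choose the brightest probe of a gene. Sums over a list add intensities of different probes, so bright probes weigh most in them. The fits were tested on simulated data. SAM was run on the authors' intensities (values under 16 set to 16, 70 arrangements of the genotypes). Named genes were the 8 genes with every probe, listed genes that passed the test with up to 4 others of each list, and the 3 most similar genes for *Cnnm2*, *Pvalb* and *Trpm6* (for several marker lists only counts are given). The genes and lists were chosen with earlier results of these data known. The labels name no batch; the arrays are numbered with the wild type mice first, so an effect of that order and the genotype cannot be told apart. Precision is limited by the number of arrays, and the median SE of a log2 fold change was 0.0839.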

Additional observations from a re-analysis of the deposited data

Results flagged for a closer look

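Among the 14 sets of 4 values tested for an extreme mouse (7 probes in each genotype), *Pvalb* in the wild type mice stood out. Replicate 4 was at 11.74, the other 3 lay at 11.45 to 11.48, and its gap to the nearest of them was 0.902 of the whole range, above the 95% critical value of Dixon's test. Chance flags about 1 in 20 such sets. Without this mouse the log2 fold change of *Pvalb* was 0.37 (adjusted p = 0.0182 from limma). Leaving out the highest wild type mouse was bound to widen this difference.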

How the results depend on the processing

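*Cnnm2* kept its direction and its call in every limma fit run (0.27 to 0.35), with median scaling at an adjusted p of 0.0482. *Pvalb* did not pass with median scaling (0.26) or with no filter (0.30), and ran from 0.27 to 0.37 when 1 mouse was left out. With median scaling and with no filter, 1 magnesium gene and 1 magnesium probe were called instead of 2 and 2, and leaving out 1 mouse gave 1 to 3 genes and 1 to 4 probes. The brightest *Trpm6* probe ran from 0.13 to 0.27 in the latter fits, and the dimmer one passed with an offset of 50 (0.24, adjusted p = 0.042) and with a detection p under 0.01 on all 8 arrays (0.35, adjusted p = 0.0421), a filter that left no *Slc41a3* probe. The dimmer *Trpm6* probe did not pass with no filter (adjusted p = 0.101), on the authors' intensities (0.43, adjusted p = 0.0751) or with median scaling, which took the brightest probe to 0.07. The methods' SAM called 0 of 7 magnesium genes at a fold above 1.6, although *Cnnm2* and *Pvalb* passed its FDR before the fold was required, and 234 of all probes. Leaving out 1 mouse gave 1134 to 1681 of all probes instead of 2160, with 1134 without wild type replicate 1, 1290 without wild type replicate 2, 1322 without mutant replicate 2 and 1435 without mutant replicate 4, and 5 to 6 of the further genes instead of 9. With the replicate block, 1352 of all probes, 2 magnesium genes and 6 further genes were called. The numbers are shared by name only: the deviations of wild type mice correlated best with the mutant of the same number for 1 of the 4 numbers. Signs turned only for genes that passed in neither fit. With median scaling these were *Egfr* (-0.039), *Pcbd2* (-0.019) and *Ptp4a3* (-0.077). Leaving out 1 mouse gave -0.020 to 0.059 for *Egfr*, -0.051 to 0.067 for *Ptp4a3*, -0.15 to 0.018 for *Cldn19* and -0.012 to 0.20 for *Scube3*. The cause of these shifts was not tested. The signal limits *Trpm7*, *Cnnm4* and the probes ILMN_2447694 of *Trpm6* and ILMN_3075513 of *Slc41a3*, which were above background on no array. It also limits the *Slc41a3* probes that were tested, with wild type means of 5.13 and 4.94. The lowest level above background was 4.86 to 4.96 over the arrays.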

Other observations

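Markers of the other kidney cell types were read beside the magnesium genes. Of the 7 proximal tubule genes tested, 1 fell and 6 did not pass, and of the 7 principal cell genes 2 rose and 2 fell. Among the risers was *Fxyd4*, the gene most like *Cnnm2* over the 8 mice, at 0.28 (SE 0.06, adjusted p = 0.0168 from limma), with its second probe at 0.35 (SE 0.06, adjusted p = 0.00901). None of the 4 intercalated cell, 2 leukocyte or 3 red blood cell genes tested passed, 1 of 2 podocyte and 1 of 5 endothelial genes fell, 1 of 4 general kidney epithelial genes rose, and no adipose gene was above background on 4 arrays. Of 5 urothelial genes tested, 4 rose without overlap of the genotypes, namely *Upk1b* by 0.91 (SE 0.16, adjusted p = 0.00819), *Upk3a* by 0.77 (SE 0.14, adjusted p = 0.0099), *Upk2* by 0.67 (SE 0.13, adjusted p = 0.0106) and *Upk1a* by 0.54 (SE 0.11, adjusted p = 0.0128), and *Upk3b* had 0.02 (SE 0.08, adjusted p = 0.905). The second *Upk1a* probe, ILMN_1240084, had 0.11 (SE 0.10, adjusted p = 0.46), and the genotypes overlapped. Wild type means were 5.21 for *Upk1b* and 5.33 for *Upk1a*. The lowest level above background was 4.86 to 4.96 over the arrays, so these genes were dim. The second *Umod* probe fell by 0.82 (SE 0.11, adjusted p = 0.00298), and the second probe of *Slc12a3* rose by 0.32 (SE 0.07, adjusted p = 0.0181), while its dimmest had 0.28 (SE 0.14, adjusted p = 0.186).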
